A study of Mus musculus with 18 samples.

Results

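The miR-15/16 family and the linked miRNAs of the miR-322 and miR-503 locus were followed in normal mouse adrenal gland and in tumors induced by transgenic IGF2BP1, alone or together with MYCN. Of the 1966 mature miRNAs in the deposited small RNA table, 8 were taken by name: mmu-miR-15a-5p, mmu-miR-15b-5p, mmu-miR-16-5p, mmu-miR-195a-5p, mmu-miR-497a-5p, mmu-miR-322-5p, mmu-miR-322-3p and mmu-miR-503-5p. The table holds 18 libraries: 3 of wildtype adrenal gland (AG, label CRE -), 7 of tumors with the R26 IGF2BP1 transgene (TI) and 8 of tumors that carry R26 IGF2BP1/MYCN (TIM). The TI labels give IGF2BP1 +/+, CRE + in 6 samples and IGF2BP1 +/-, CRE + in 1, and the TIM label is IMP1/MYCN, CRE +, where IMP1 is another name of IGF2BP1. One TI tumor and 2 TIM tumors are labelled as lying in the adrenal gland and 1 TIM tumor at the spine. Both transgenes sit at the Rosa26 locus behind a stop cassette that Dbh-driven iCRE removes in adrenal glands and peripheral nerves, and the IGF2BP1 transgene lacks its 3′UTR. Mice were backcrossed to C57Bl6/N, and the labels give no ages. The column names give the group of a library but not its label, so libraries are numbered here in column order, and the heterozygous tumor and the tumor sites could not be placed.

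MicroRNAs are short RNAs that guide Argonaute proteins to partly complementary sites in mRNAs, where bases 2 to 8 of the miRNA, the seed, set most of the pairing. The miR-15/16 family is known for lowering cyclins, cyclin-dependent kinases and BCL2, and several of its members rise when cells leave the cell cycle. miR-322 is the mouse counterpart of human miR-424 and is processed with miR-503 from 1 X-linked transcript that is active in growing and differentiating tissue. IGF2BP1 is an RNA-binding protein that shields mRNAs from miRNA-directed decay, and MYCN is the transcription factor amplified in high-risk neuroblastoma.

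The 8 mature sequences are shown because the shared seed defines the family and the bases outside it tell its members apart. They are taken from RefSeq and written 5′ to 3′ with the seed in capitals.
mmu-miR-15a-5p: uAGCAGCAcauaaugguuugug
mmu-miR-15b-5p: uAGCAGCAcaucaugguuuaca
mmu-miR-16-5p: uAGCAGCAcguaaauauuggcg
mmu-miR-195a-5p: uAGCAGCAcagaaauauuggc
mmu-miR-497a-5p: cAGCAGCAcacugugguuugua
mmu-miR-322-5p: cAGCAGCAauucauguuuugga
mmu-miR-503-5p: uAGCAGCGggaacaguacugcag
mmu-miR-322-3p: aAACAUGAagcgcugcaacac

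The same seed, AGCAGCA, was carried by 6 of the 8. miR-503-5p differs from it in its last seed base, and miR-322-3p, the opposite arm of the miR-322 hairpin, has an unrelated seed. miR-16-5p and miR-195a-5p differ at 2 of the 21 positions they can be compared over, against 4 of 22 for miR-15a-5p and miR-15b-5p and 11 of 22 for miR-16-5p and miR-497a-5p.

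The members come from 4 loci of the mouse genome (GRCm38.p6, the mm10 assembly). miR-15a-5p lies at chr14:61632075-61632096 on the minus strand beside 1 of 2 copies of miR-16-5p, at chr14:61631936-61631957, in the non-coding Dleu2 gene. miR-15b-5p lies at chr3:69009775-69009796 on the plus strand beside the other copy, at chr3:69009918-69009939, in an intron of Smc4. miR-497a-5p, at chr11:70234730-70234751, and miR-195a-5p, at chr11:70235062-70235082, follow each other on the plus strand. miR-322-5p, at chrX:53054306-53054327, miR-322-3p, at chrX:53054269-53054289, and miR-503-5p, at chrX:53054027-53054049, are on the minus strand in the Mir503hg non-coding transcript, at the head of a cluster of 7 hairpins and 13 mature miRNAs that spans 6320 bp and ends with miR-450b. Host genes were read from the GENCODE annotation of GRCm39. Both copies of miR-16-5p give the same mature sequence, so its reads cannot be assigned to chromosome 3 or 14.

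Levels are reads relative to library size (CPM), scaled by the authors with TMM factors, which adjust each library for the composition of its RNA. The libraries held 11641696 to 23435621 reads on miRNAs, and 3 reads corresponded to 0.101 to 0.272 CPM. All 8 members were measured above this floor in every library and all passed the filter of 1 CPM in at least 3 libraries that left 726 miRNAs for testing. miR-148a-3p alone took 4.19% to 6.94% of the reads in AG and 6.53% to 44.2% in TIM. In TI it took 2.29% in library 5 but 30.1% to 61.9% in the other 6 libraries. TIM libraries 3 and 6 had the highest TMM factors (1.795 and 1.85) and the fewest reads of their group (12133274 and 11641696). limma served for the group comparisons, on log2(CPM + 1) and over all 726 miRNAs, with Benjamini-Hochberg adjustment, and fold changes are on this scale, which understates changes at low levels. Whether each library comes from a separate mouse is not in the labels, so p-values measure the spread between these libraries. The paper reports more tumors than mice for IGF2BP1/MYCN, so some TIM libraries may share a mouse. If they do, p-values that involve TIM may be too small.

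**Figure D1:**
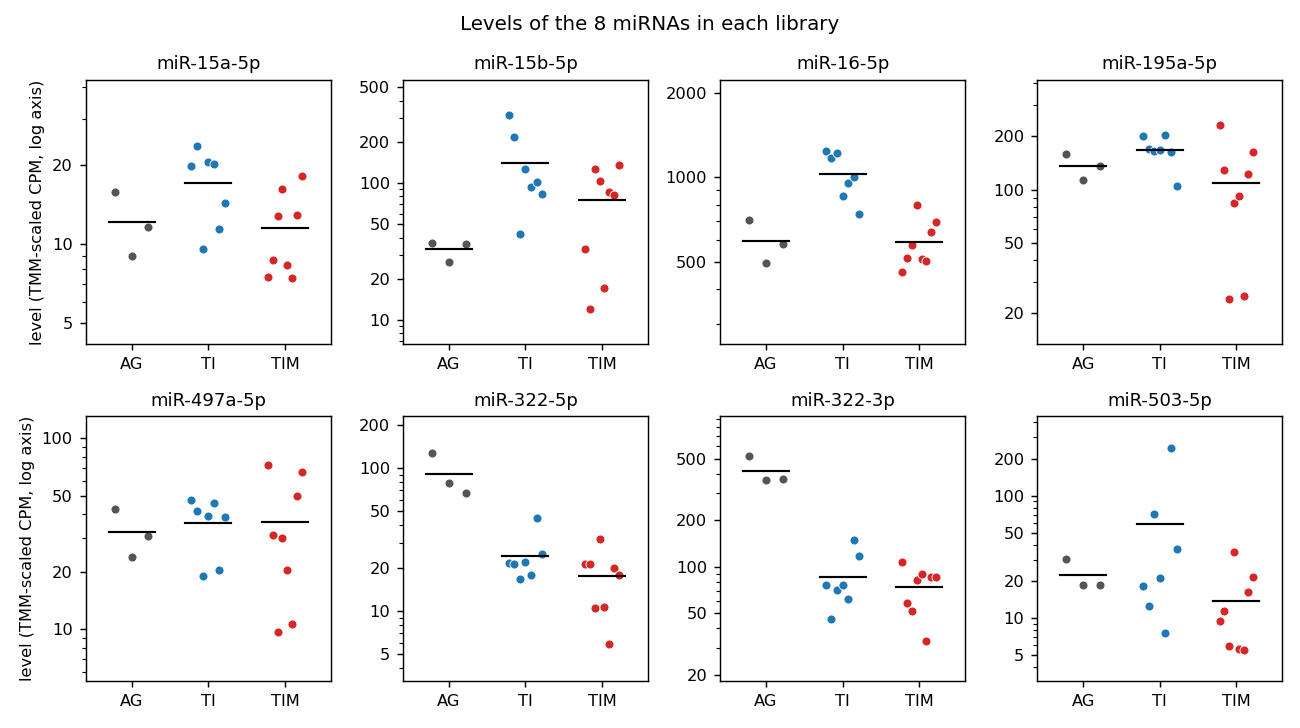
Level of each of the 8 miRNAs (TMM-scaled CPM, log axis) in wildtype adrenal gland (AG, 3 libraries), IGF2BP1 tumors (TI, 7) and IGF2BP1/MYCN tumors (TIM, 8), with 1 point per library and a line at the group mean. miR-322-5p and miR-322-3p sit lower in every tumor library than in any AG library, miR-15b-5p and miR-16-5p sit higher in every TI library, and miR-503-5p spreads from 7.53 to 247 CPM in TI.

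In TI tumors, 2 members rose and 2 fell against wildtype adrenal gland, while 4 did not pass the test. miR-15b-5p and miR-16-5p were higher, and both arms of the miR-322 hairpin were lower. These 4 of 8 stand beside a background of 55.8% of all tested miRNAs passing in either direction, 26.4% higher and 29.3% lower, so the share of members that changed was not above that of all miRNAs. The median log2 fold change was 0.36 over the members and -0.01 over all tested miRNAs. In TIM tumors, both miR-322 arms fell and the other 6 members did not pass the test, beside a background of 51.4% in either direction, 25.5% higher and 25.9% lower. The median was -0.38 over the members and 0.18 over all tested miRNAs. The TI and TIM comparisons share the 3 AG libraries. AG carries no Cre, most tumors are not labelled as adrenal, and the paper places most IGF2BP1 tumors in the lower abdomen. Tumor formation cannot be told apart from Cre, tissue site or age in the comparisons with AG.

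miR-16-5p was the most abundant member in every library. It measured 704, 495 and 581 CPM in the 3 AG libraries. In TI it ranged from 743 to 1238 CPM with a median of 1005, and in TIM from 459 to 797 CPM with a median of 547. All 7 TI libraries lay above the AG range, which 22.0% of all tested miRNAs did, whereas TIM and AG overlapped. The log2 fold change was 0.78 ± 0.24 (SE) in TI (adjusted p = 0.0111), a 1.72-fold rise, and -0.02 ± 0.24 in TIM (adjusted p = 0.951). The direction in TIM turned under several other settings. The rise in TI lost its call without the second AG library (adjusted p = 0.0666) and with CPM not scaled by TMM (adjusted p = 0.113).

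Red blood cells are rich in miR-16-5p together with miR-451a, miR-144 and miR-486a. None of these 4 red cell markers passed the test in TI or TIM by limma, edgeR or DESeq2, 0 had an unadjusted p under 0.05 by any of the 3, and none was at 0 in a group. By limma, 55.8% of all tested miRNAs passed in TI and 51.4% in TIM. The summed level of the red cell markers was 715 to 2471 CPM in AG, 344 to 4425 CPM in TI and 172 to 2605 CPM in TIM, so all 3 groups overlapped. Their part in the level of miR-16-5p was not tested.

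The 3p arms of the 2 miR-16 hairpins differ in sequence and can be told apart. miR-16-1-3p, from chromosome 14, averaged 66.9 ± 11.6 CPM (SD, n = 3) in AG, 84.3 ± 31.8 CPM (n = 7) in TI and 81.1 ± 28.5 CPM (n = 8) in TIM. miR-16-2-3p, from chromosome 3, averaged 1.62, 1.73 and 1.38 CPM in the same order. The chromosome 14 arm exceeded the chromosome 3 arm 22.2- to 149.6-fold within single libraries. The 3p arms did not pass the test in TI, with log2 fold changes of 0.24 ± 0.38 for miR-16-1-3p (adjusted p = 0.628) and 0.20 ± 0.35 for miR-16-2-3p (adjusted p = 0.665).

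miR-15b-5p showed the largest rise of the 8 members in TI. AG libraries held 36.6, 26.7 and 36.0 CPM. TI libraries held 42.6 to 316 CPM with a median of 102, all above AG, and TIM libraries 12.01 to 136 CPM with a median of 84.1, overlapping AG on both sides. In TI, 22.0% of all tested miRNAs lay wholly above AG. The log2 fold change of miR-15b-5p in TI was 1.81 ± 0.70 (adjusted p = 0.0362), which is 3.50-fold. This call was sensitive to single libraries, since the adjusted p ran from 0.0189 to 0.108 when each was left out in turn and exceeded 0.05 without any 1 of the 3 AG libraries or without TI library 1 or 2. It was also lost with CPM not scaled by TMM (adjusted p = 0.0769) and with no filter on low levels (adjusted p = 0.0661). In TIM the log2 fold change was 0.75 ± 0.69 (adjusted p = 0.378).

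The arm opposite to miR-15b-5p, miR-15b-3p, measured 20.9 ± 4.66 CPM in AG (SD, n = 3), 29.9 ± 12.02 CPM in TI (n = 7) and 30.6 ± 19.1 CPM in TIM (n = 8), with a log2 fold change of 0.41 ± 0.59 in TI (adjusted p = 0.581). miR-15a-5p, the chromosome 14 counterpart, measured 15.9, 8.998 and 11.7 CPM in AG, 9.60 to 23.6 CPM in TI (median 19.8) and 7.44 to 18.2 CPM in TIM (median 10.7). The 3 groups overlapped, with log2 fold changes of 0.43 ± 0.36 in TI (adjusted p = 0.324) and -0.11 ± 0.35 in TIM (adjusted p = 0.822).

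miR-195a-5p and miR-497a-5p did not pass the test in either tumor type. miR-195a-5p measured 160, 113 and 135 CPM in AG, 105 to 204 CPM in TI (median 166) and 24.1 to 232 CPM in TIM (median 107.1). The log2 fold changes were 0.29 ± 0.55 in TI (adjusted p = 0.688) and -0.65 ± 0.54 in TIM (adjusted p = 0.33). miR-497a-5p measured 42.4, 23.8 and 30.8 CPM in AG, 18.9 to 47.5 CPM in TI (median 39.2) and 9.69 to 72.1 CPM in TIM (median 30.6). The log2 fold changes were 0.12 ± 0.55 in TI (adjusted p = 0.877) and -0.11 ± 0.54 in TIM (adjusted p = 0.878), and the sign of both turned under other scalings.

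The spread of this pair within TIM followed single libraries. TIM library 1 had the highest levels of both, 232 and 72.1 CPM. The same library held 22972 CPM of the 3 muscle markers miR-1a-3p, miR-133a-3p and miR-206-3p, whereas the other groups reached 207 CPM in AG and 344 CPM in TI, and the TIM median was 140 CPM. None of the muscle markers passed the test against AG by limma, with 0 at an unadjusted p under 0.05, or by edgeR or DESeq2, and none was at 0 in a group. Of all tested miRNAs, 55.8% passed by limma in TI and 51.4% in TIM. TIM libraries 3 and 6, which had the highest TMM factors, held the lowest miR-195a-5p of all libraries (24.1 and 25.0 CPM) and the lowest miR-497a-5p (9.69 and 10.6 CPM). Without TIM library 1 the log2 fold change of miR-195a-5p in TIM was -0.85 (adjusted p = 0.173). The part of muscle RNA or of scaling in these values was not tested.

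miR-322-5p and miR-322-3p fell in both tumor types, and no tumor library reached the AG range for either arm. Libraries lay entirely below AG for 24.4% of all tested miRNAs in TI and for 22.0% in TIM, and entirely above it for 21.1% in TIM. miR-322-5p measured 128, 78.3 and 66.5 CPM in AG, 16.7 to 45.0 CPM in TI (median 21.6) and 5.86 to 32.0 CPM in TIM (median 19.0). The log2 fold change was -1.87 ± 0.43 in TI (adjusted p = 0.00146), 3.66-fold lower, and -2.40 ± 0.42 in TIM (adjusted p = 0.000124), 5.28-fold lower.

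miR-322-3p, counted more often than miR-322-5p in every library, measured 520, 361 and 366 CPM in AG. TI libraries held 46.0 to 149.9 CPM (median 75.7) and TIM libraries 32.9 to 106.6 CPM (median 84.3). The log2 fold changes were -2.34 ± 0.38 in TI (adjusted p = 5.67e-05), 5.08-fold lower, and -2.53 ± 0.37 in TIM (adjusted p = 2.11e-05), 5.77-fold lower. Both arms passed the test in each of the 18 fits that left out 1 library and under the 11 other settings run. In bulk tissue, fewer cells of a type that holds a miRNA and less of it per cell cannot be told apart.

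**Figure D2:**
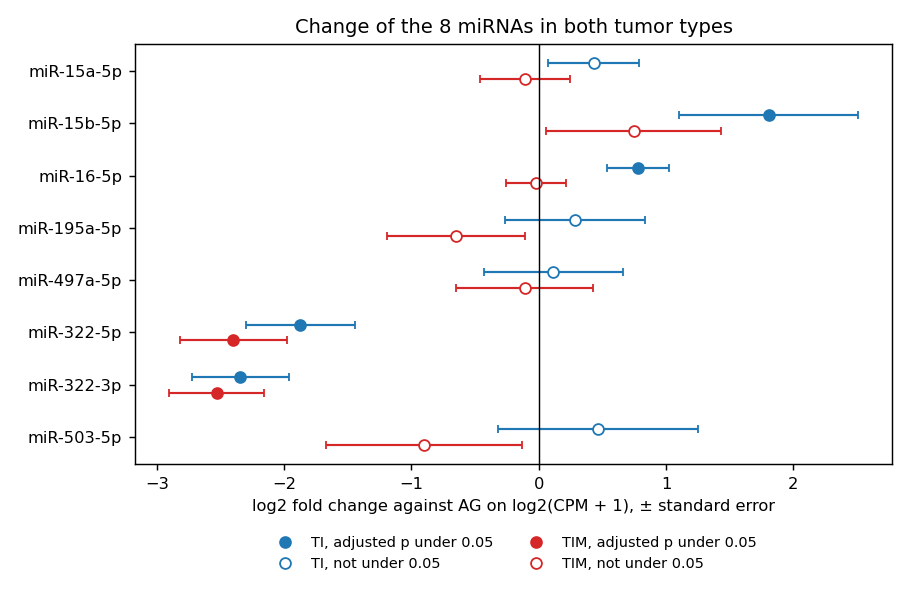
Log2 fold change of the 8 miRNAs against wildtype adrenal gland in TI (blue) and TIM (red), on log2(CPM + 1), with bars of 1 standard error, and filled points where the limma adjusted p was under 0.05. miR-322-5p and miR-322-3p lie between -1.87 and -2.53 in both tumor types, and miR-15b-5p (1.81) and miR-16-5p (0.78) are filled in TI alone.

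miR-503-5p, the neighbor of miR-322 in the same transcript, did not pass the test. It measured 30.5, 18.8 and 18.8 CPM in AG. TI libraries held 7.53 to 247 CPM with a median of 21.3, and TIM libraries 5.53 to 34.7 CPM with a median of 10.4, so both overlapped AG. TI libraries 3 (71.3 CPM) and 6 (247 CPM) were the highest of all 18. Both also had the lowest miR-497a-5p of TI, at 18.9 and 20.5 CPM. The log2 fold change was 0.47 ± 0.79 in TI (adjusted p = 0.646) and -0.90 ± 0.77 in TIM (adjusted p = 0.342). The TI value was -0.02 without TI library 6, and 1.58 on recovered reads both with edgeR (adjusted p = 0.194) and with DESeq2 (adjusted p = 0.116).

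The opposite arm of the same hairpin, miR-503-3p, fell in both tumor types. It measured 40.1, 23.4 and 21.6 CPM in AG, against 3.80 to 6.72 CPM in TI and 1.72 to 6.74 CPM in TIM, with no overlap. The log2 fold change was -2.34 ± 0.35 in TI (adjusted p = 2.17e-05) and -2.56 ± 0.34 in TIM (adjusted p = 7.47e-06), 5.06- and 5.90-fold lower. Within single libraries, the ratio of miR-503-5p to miR-503-3p was 0.760 to 0.871 in AG, 1.93 to 36.8 in TI and 1.40 to 6.81 in TIM. This ratio was chosen after the values were seen and was not tested.

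Partners of miR-322 in the X-linked cluster moved in its direction. Of 13 mature miRNAs in the cluster, 11 passed the filter, and 8 of these were not members. Of the 8, 7 fell in TI and 8 in TIM, with none rising, beside 29.3% and 25.9% of all tested miRNAs that were lower. Their median log2 fold change was -1.66 in TI and -1.98 in TIM. The 8 include miR-351-3p, which passed the filter through its AG libraries alone. miR-450a-5p changed most, from 243 ± 85.3 CPM in AG (SD, n = 3) to 30.2 ± 10.8 CPM in TI (n = 7) and 28.6 ± 13.3 CPM in TIM (n = 8), 7.93- and 8.80-fold lower (adjusted p = 1.61e-05 and 8.34e-06). miR-351-5p fell from 214 ± 111 CPM to 53.3 ± 21.2 and 36.3 ± 16.3 CPM (adjusted p = 0.00156 and 0.000125). miR-542-3p, which lies between them, fell from 106.5 ± 27.9 CPM to 33.7 ± 11.8 and 26.6 ± 10.8 CPM (adjusted p = 0.0016 and 0.000234).

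miR-450b-5p and miR-450b-3p at the far end of the cluster had log2 fold changes of -1.64 and -1.63 in TI and of -1.93 and -1.71 in TIM, each past the threshold. miR-351-3p, present at 1.498 CPM in AG, fell with log2 fold changes of -1.013 in TI and -0.84 in TIM. Its lowest AG library held 1.03 CPM, against a highest of 0.832 CPM in TI and 0.597 CPM in TIM. It passed the filter through AG alone, which left little room for any result but a fall. miR-542-5p, at 1.62 CPM in AG, had log2 fold changes of -0.60 in TI (adjusted p = 0.0628) and -0.66 in TIM (adjusted p = 0.0429). miR-450a-1-3p and miR-450a-2-3p averaged under 1 CPM in every group and were not tested. Among the tested miRNAs of the cluster, miR-503-5p alone passed in neither tumor type.

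**Figure D3:**
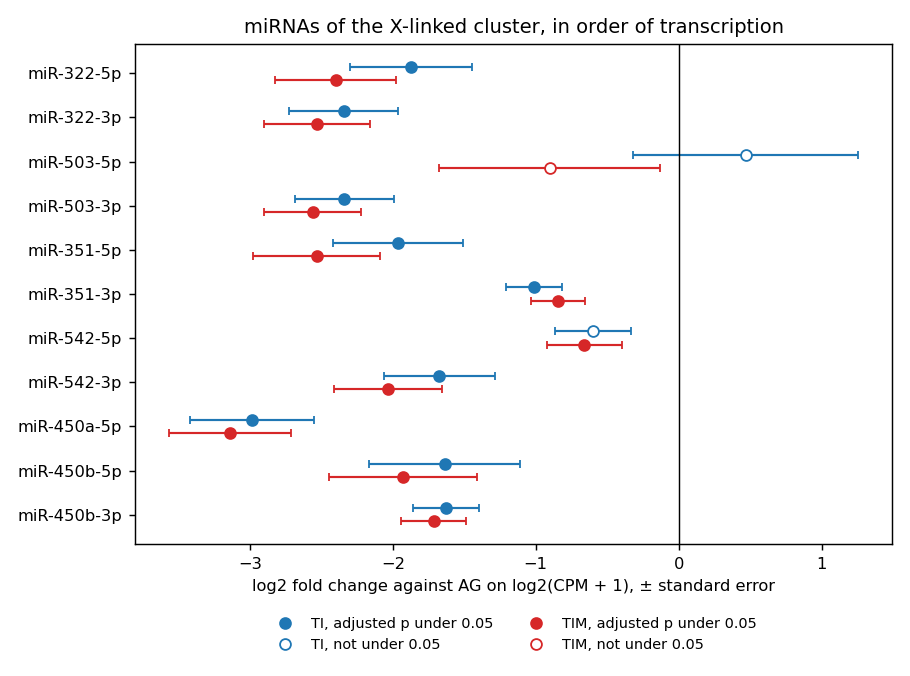
Log2 fold change against wildtype adrenal gland of the 11 tested miRNAs of the X-linked cluster, from miR-322 at the head to miR-450b at the far end, in TI (blue) and TIM (red), with bars of 1 standard error and filled points where the limma adjusted p was under 0.05. All values are below 0 except that of miR-503-5p in TI (0.47), and miR-450a-5p is lowest at -2.99 and -3.14.

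Markers of vessels, stroma and leukocytes fell along with the X-linked cluster, and their counts stand beside 29.3% of all tested miRNAs that were lower in TI and 25.9% in TIM. The 2 endothelial markers, miR-126a-3p and miR-126a-5p, fell in both tumor types, from a summed 38529 to 46092 CPM in AG to 1704 to 6736 CPM in TI and 2428 to 8943 CPM in TIM. Of 3 stromal markers (miR-199a-3p, miR-199a-5p and miR-214-3p), 3 fell in TI and 2 in TIM, with sums of 1973 to 3125 CPM in AG, 330.4 to 1550 CPM in TI and 225 to 1253 CPM in TIM. Of 3 smooth muscle markers, 2 fell in TI and 3 in TIM, with sums of 121539 to 209381 CPM in AG, 15806 to 171339 CPM in TI and 16036 to 101146 CPM in TIM. Of 5 leukocyte markers, 3 fell in TI and 4 in TIM, with sums of 427 to 620.4 CPM in AG, 53.5 to 348 CPM in TI and 69.5 to 215 CPM in TIM. No marker of these lists was at 0 in a group, and their part in the fall of the cluster was not tested. The neuronal markers miR-124-3p and miR-9-5p rose in both tumor types, with log2 fold changes of 4.86 and 3.82 in TI and 4.93 and 4.16 in TIM, whereas the neuroendocrine miR-375-3p and miR-7a-5p did not pass the test and were at no less than 8915 and 35994 CPM in each AG library. The sum of these 4 was 45274 to 108206 CPM in AG, 32418 to 250110 CPM in TI and 43408 to 247553 CPM in TIM.

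Partners outside the X-linked cluster did not pass the limma test. Of 8, 6 passed the filter and none was called in TI or TIM, with medians of 0.22 and 0.09. Of all tested miRNAs, 55.8% were called in TI and 51.4% in TIM. The absence of calls does not show an absence of change. By limma, 0 of the 6 had an unadjusted p under 0.05. edgeR also called 0 in both, and DESeq2 called 0 in TI and 1 in TIM, miR-497b, which was higher. The largest difference was that of miR-195a-3p, the arm opposite to miR-195a-5p, which measured 129, 79.7 and 92.8 CPM in AG, 13.5 to 93.2 CPM in TI and 12.03 to 180 CPM in TIM. Its difference from AG was -1.48 ± 0.76 in TI (adjusted p = 0.105) and -1.20 ± 0.75 in TIM (adjusted p = 0.194). miR-15a-3p and miR-497b stayed near the filter, and miR-497a-3p and miR-195b were below it. miR-497b overlaps the miR-497a hairpin on the opposite strand, and how strand was counted is not given in the sources used here.

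Ratios between members of the same library were compared across the 3 group pairs with a two-sided exact permutation test, for 4 ratios and with adjustment over 12 comparisons. Ranges are ratios of CPM, whereas differences and tests are on the log2 ratio of CPM + 1, which draws ratios of low levels toward 1. The ratio of miR-503-5p to miR-322-5p was 0.239 to 0.283 in AG, 0.421 to 5.49 in TI and 0.443 to 1.23 in TIM, so every tumor library lay above AG. The mean log2 ratio differed from AG by 2.34 in TI (exact p = 0.0167, adjusted p = 0.05) and by 1.498 in TIM (exact p = 0.0121, adjusted p = 0.05). These are the smallest p-values that 3 against 7 and 3 against 8 libraries can give, and the adjusted values reached the threshold of 0.05 without falling below it.

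The ratio of miR-15a-5p to miR-15b-5p was 0.324 to 0.433 in AG, 0.0627 to 0.225 in TI and 0.0863 to 0.725 in TIM. TI differed from AG by -1.38 on the log2 scale, with all 7 libraries below AG (exact p = 0.0167, adjusted p = 0.05), and TIM by -0.86 (exact p = 0.218, adjusted p = 0.291). The ratio of miR-497a-5p to miR-195a-5p was 0.211 to 0.266 in AG, 0.115 to 0.37 in TI and 0.223 to 0.426 in TIM. TIM exceeded TI by 0.71 (exact p = 0.0124, adjusted p = 0.05) and AG by 0.54 (exact p = 0.0727, adjusted p = 0.145). The ratio of the miR-322 arms, 3p to 5p, was 4.07 to 5.51 in AG, 2.14 to 4.66 in TI and 2.58 to 8.43 in TIM, with a difference from AG of -0.47 in TI (exact p = 0.05, adjusted p = 0.12) and of -0.13 in TIM (exact p = 0.703, adjusted p = 0.703). The TIM value was -0.07 with 0.1 CPM and -0.33 with 5 CPM added in place of 1. None of the 12 adjusted values was under the threshold, and 4 of the 12 exact permutation p-values were under 0.05 before adjustment.

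**Figure D4:**
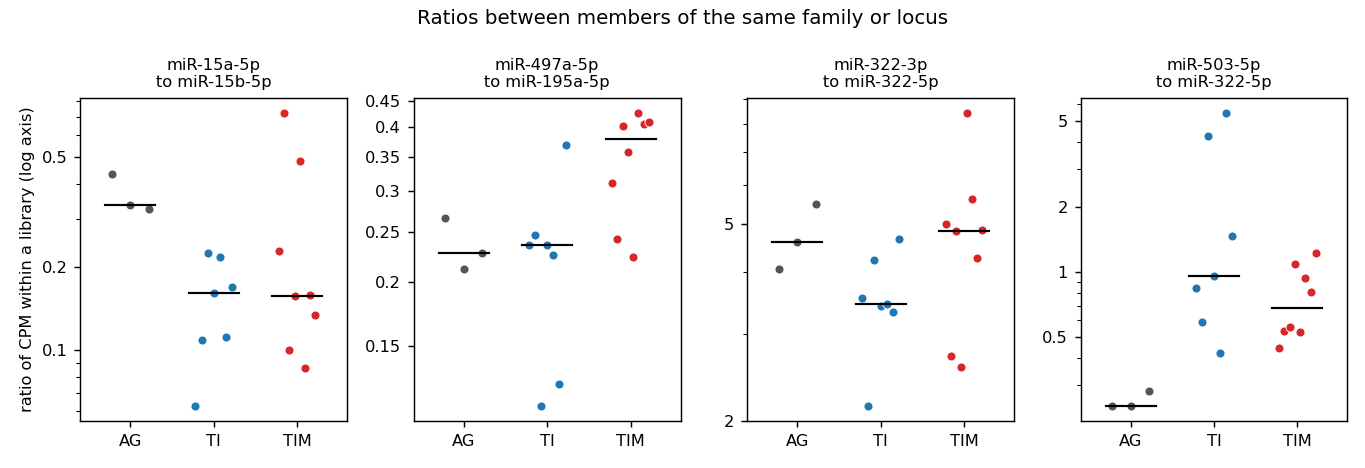
Ratio of CPM between members within each library (log axes) for miR-15a-5p to miR-15b-5p, miR-497a-5p to miR-195a-5p, miR-322-3p to miR-322-5p and miR-503-5p to miR-322-5p, with 1 point per library and a line at the group median. In the last panel the AG libraries lie between 0.239 and 0.283 and the tumor libraries between 0.421 and 5.49.

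TIM and TI tumors were compared directly. Genotyping by the study found both transgenes and no wildtype Rosa26 allele in TIM. The groups thus differ in MYCN and also in IGF2BP1, which occupies both Rosa26 alleles in the IGF2BP1 +/+ tumors that make up most of TI and shares the locus with MYCN in TIM. MYCN and the dose of IGF2BP1 cannot be told apart in this comparison. The paper also reports shorter survival, and tumors more often in the adrenal gland or along the spine, in IGF2BP1/MYCN mice. Age and tumor site therefore cannot be told apart from genotype here either. One of the 8 members, a count of 1, passed the test, beside 5.23% of all tested miRNAs. miR-16-5p was lower in TIM by 0.80 ± 0.18 on the log2 scale (adjusted p = 0.0126), a 1.74-fold difference, with 7 of 8 TIM libraries below the lowest TI library and the remaining TIM library, at 797 CPM, inside the TI range. The call was kept when any single library was left out (adjusted p from 0.00856 to 0.0394). It was lost with CPM not scaled by TMM, where the difference was -0.24 (adjusted p = 0.404) while the median of all tested miRNAs stood at 0.49. It was also lost without TIM libraries 3 and 6 (-0.77, adjusted p = 0.0512), a setting chosen after the values were seen, without miR-148a-3p in the total (-0.73, adjusted p = 0.0878) and with edgeR (-0.83, adjusted p = 0.0621).

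Each of the other 7 members had a negative difference between TIM and TI that did not pass the test. miR-503-5p had the largest, -1.37 ± 0.59 (adjusted p = 0.172), followed by miR-15b-5p at -1.06 ± 0.53 (adjusted p = 0.237) and miR-195a-5p at -0.93 ± 0.41 (adjusted p = 0.182). The values were -0.54 for miR-15a-5p, -0.53 for miR-322-5p, -0.23 for miR-497a-5p and -0.18 for miR-322-3p, and the last pair of these turned positive with CPM not scaled by TMM. With single libraries left out, the difference of miR-503-5p ran from -1.69 to -0.88 (limma adjusted p from 0.0781 to 0.32). The value of -1.69 came without TI library 5, which stood apart within TI in miR-148a-3p. That library also had the lowest miR-503-5p of TI (7.53 CPM), and TI library 6 had the highest (247 CPM). DESeq2 on recovered reads called miR-503-5p lower in TIM (-2.33, adjusted p = 0.00828).

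The 6 members that share a seed were also summed in each library. The sum was 898 ± 173 CPM (SD, n = 3) in AG, 1412 ± 273 CPM (n = 7) in TI and 837 ± 175 CPM (n = 8) in TIM, and AG and TI overlapped between 1010 and 1087 CPM. miR-16-5p supplied 66.2 ± 1.31% of the sum in AG, 72.9 ± 5.01% in TI and 70.9 ± 7.95% in TIM. miR-322-5p supplied 9.99 ± 2.06%, 1.797 ± 0.831% and 2.04 ± 0.774% in the same order, and miR-15b-5p 3.71 ± 0.421%, 9.50 ± 4.61% and 8.69 ± 5.50%. miR-195a-5p supplied 15.2%, 11.9% and 12.9%, so it remained second on average in each group. No test was made on the sum or the shares.

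**Figure D5:**
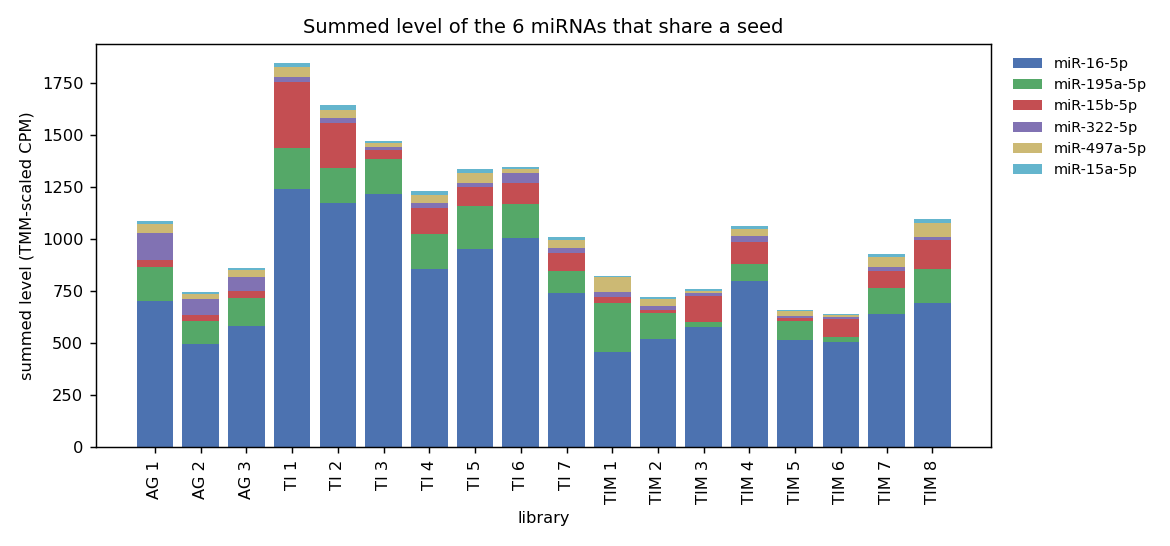
Summed level (TMM-scaled CPM) of the 6 miRNAs that share the seed in each library, stacked by miRNA, for 3 AG, 7 TI and 8 TIM libraries. miR-16-5p fills most of every bar, the miR-322-5p segment is widest in AG (9.99% of the sum on average), and the bars of TI reach 1843 CPM against 1087 CPM in AG and 1096 CPM in TIM.

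By mean CPM, the order of the members in AG ran miR-16-5p, miR-322-3p, miR-195a-5p, miR-322-5p, miR-15b-5p, miR-497a-5p, miR-503-5p and miR-15a-5p. miR-15b-5p and miR-497a-5p overlapped there, as did miR-497a-5p and miR-503-5p, and miR-195a-5p and miR-322-5p. In TI, miR-322-3p (85.4 ± 35.7 CPM) ranked behind miR-195a-5p (168 ± 32.5 CPM) and miR-15b-5p (140.5 ± 94.3 CPM), which overlapped each other. In TIM, miR-195a-5p (109 ± 69.5 CPM), miR-15b-5p (74.7 ± 48.7 CPM) and miR-322-3p (74.3 ± 24.3 CPM) overlapped. Mature lengths were 21 to 23 bases, and no length correction was made. Whether different sequences were captured equally was not tested, so orders, shares and ratios of different miRNAs are those of reads.

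miR-103-3p and miR-107-3p belong to the wider group that carries the AGCAGC core shifted by 1 base. They are shown because they differ at 1 of 23 positions and moved differently.
mmu-miR-103-3p: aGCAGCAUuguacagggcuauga
mmu-miR-107-3p: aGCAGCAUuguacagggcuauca

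miR-107-3p fell from 82.7, 63.2 and 76.5 CPM in AG to 24.0 to 40.6 CPM in TI and 28.8 to 59.5 CPM in TIM, without overlap. The log2 fold change of miR-107-3p was -1.14 ± 0.29 in TI (adjusted p = 0.00346) and -0.90 ± 0.29 in TIM (adjusted p = 0.0153). miR-103-3p averaged 1597 ± 63.6, 1734 ± 731 and 1721 ± 450.5 CPM, with log2 fold changes of 0.00 ± 0.34 and 0.07 ± 0.34 (adjusted p = 0.995 and 0.881). How reads that match both sequences were assigned is not given in the sources used here. Outside the 8 members, miR-195b also carries the AGCAGCA seed. It was at 0 in every AG and TIM library and in 6 of 7 TI libraries, with a highest value of 0.0731 CPM. The 3 other mouse miRNAs with this seed, miR-6342, miR-6353 and miR-6419, had 0 reads in all 18 libraries, where 3 reads correspond to 0.272 CPM or less.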

How the data were processed

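Small RNA was sequenced from 18 mouse tissue samples, with TRIzol extraction per the labels. Per the submitters' processing notes and the study's methods, the authors used cutadapt 2.8, Bowtie2 2.3.5.1 on mm10, featureCounts 2.0.0 and edgeR 3.40. How multi-mapping reads and strand were counted is not given in the sources used here.

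The deposited table holds TMM-scaled CPM, here treated as a signal, for 1966 miRNAs. All 35388 deposited values (100%) came out as whole reads within 0.001 read once library size and TMM factor were recovered. A further 9 columns hold the authors' own comparisons (log2 fold changes, p-values and false discovery rates) and were not used. No pair of libraries was identical.

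The main test was limma 3.58.1 (R 4.3.3) on log2(CPM + 1) with a mean-variance trend, 1 model for all 18 libraries, at least 1 CPM in at least 3 libraries, Benjamini-Hochberg adjustment and a threshold of 0.05. The scripts were tested on simulated data. Ratios used exact permutation tests (scipy 1.17.1). Alternatives were pseudocounts of 0.1 and 5 CPM, other scalings, no filter or 10 CPM, 2-group models, leaving out each library, and edgeR 4.0.16 and DESeq2 1.42.0 on recovered reads. Named miRNAs were the 8 members, their hairpin and cluster partners that pass the test or average at least 10 CPM in a group, others sharing a seed, miR-103-3p, miR-107-3p, the 3 most alike miRNAs and cell type markers. The ratio and arm values of partners lie outside this rule. Members and lists were chosen with earlier results of these data known.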

Additional observations from a re-analysis of the deposited data

Results flagged for a closer look

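On the log2(CPM + 1) scale, of 24 comparisons of the lowest or highest library of a tumor group with the rest, 3 passed Dixon's limit, where chance alone passes about 1 in 20 groups, or 1.2 here. In TI, the lowest miR-195a-5p, 105 CPM in library 7, left a gap of 0.655 of the group's range on that log2 scale. The highest miR-322-5p of TI, 45.0 CPM in library 6, left a gap of 0.594 on the same scale, and this library also had the highest miR-503-5p (247 CPM) and miR-322-3p (149.9 CPM). The lowest ratio of miR-322-3p to miR-322-5p in TI, 2.14 in library 2, left a gap of 0.584 of the range on the log2 scale.

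miR-16-5p differed between the tumor types in its change against wildtype adrenal gland, by -0.80 on the log2 scale for TIM minus TI, tested directly with limma (adjusted p = 0.0126).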

How the results depend on the processing

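The fall of miR-322-5p and miR-322-3p in TI and TIM kept its direction and its call under each setting. Members called in TI dropped from 4 to 2 with CPM not scaled by TMM and ranged from 2 to 4 when single libraries were left out, the 2 being without AG library 2. Those called in TIM stayed at 2. Between TIM and TI, the 1 call dropped to 0 without TMM scaling, without miR-148a-3p in the total, with edgeR and without the 2 TIM libraries of highest TMM factor, and rose to 2 with DESeq2, which added miR-503-5p (-2.33, adjusted p = 0.00828).

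Log2 values that turned sign were all uncalled, and the largest was 0.57, for miR-16-5p in TIM without miR-148a-3p in the total. Without TMM scaling they were -0.0899 for miR-497a-5p in TI, 0.21, 0.32 and 0.22 for miR-15a-5p, miR-16-5p and miR-497a-5p in TIM, and 0.31 and 0.36 for miR-497a-5p and miR-322-3p between TIM and TI. Without miR-148a-3p in the total, miR-15a-5p, miR-16-5p and miR-497a-5p in TIM were at 0.45, 0.57 and 0.46. Without the 2 TIM libraries, miR-16-5p and miR-497a-5p in TIM were at 0.013 and 0.37, and miR-497a-5p and miR-322-3p between TIM and TI at 0.25 and 0.067. miR-497a-5p in TIM was 0.16 with edgeR and 0.087 with DESeq2. With single libraries left out, the ranges were -0.29 to 0.086 for miR-15a-5p in TIM, -0.14 to 0.11 for miR-16-5p in TIM, -0.078 to 0.32 and -0.30 to 0.10 for miR-497a-5p in TI and TIM, and -0.0249 to 0.79 for miR-503-5p in TI. The cause was not tested.

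The median of all tested miRNAs moved with scaling, from -0.01, 0.18 and 0.06 in TI, TIM and TIM against TI to -0.15, 0.41 and 0.49 without TMM and 0.34, 0.57 and 0.13 without miR-148a-3p in the total. No ratio changed direction under the pseudocounts and left-out libraries run. With 3 AG libraries the adjusted p of a ratio against AG had little room below 0.05, so its side of the threshold says nothing about stability. No paired analysis was possible because column names could not be matched to the numbered labels. Leaving out a library is written with its column number. With 3 AG libraries, changes well inside the spread of the tumors could not be detected.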

Other observations

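The ratio of the 5p to the 3p arm was higher on average in TI than in AG for miR-15b, miR-195a, miR-322 and miR-503. This pattern was noticed in these values and not tested. The 5p level itself passed the test as higher for miR-15b alone. Within single libraries, miR-195a-5p to miR-195a-3p was 1.24 to 1.46 in AG, 1.52 to 12 in TI and 1.23 to 5.42 in TIM, and miR-15b-5p to miR-15b-3p was 1.37 to 2.05, 1.91 to 11.8 and 1.96 to 3.16. Over 104 hairpins with both arms at a mean of at least 10 CPM, the log2 ratio of 5p to 3p moved by a median of -0.09 from AG to TI and rose in 46. miR-195a moved by 1.77 (rank 3 from the top), miR-15b by 1.39 (rank 7) and miR-322 by 0.47 (rank 21). From AG to TIM the median was -0.08, and the same hairpins moved by 0.55, 0.52 and 0.13. miR-503 lay outside the 104 hairpins because its lower arm averaged 8.36 CPM. It moved by 2.81 from AG to TI and by 1.66 from AG to TIM, more than the other hairpins named here. The TI and TIM values share the AG libraries.

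Likeness across the 18 libraries is given as Pearson's r of log2(CPM + 1) over 400 miRNAs with at least 10 CPM on average, as a description in which the points share libraries, groups and scaling. miR-15b-5p was most like miR-106b-5p (0.87), miR-106b-3p (0.86) and miR-25-3p (0.86), which come from 1 host gene of their own. Outside the members, miR-322-5p was most like miR-542-3p (0.91), miR-450b-5p (0.88) and miR-450a-5p (0.87) of its own cluster. With members counted, miR-322-3p stood at rank 2 for miR-322-5p (0.91). miR-503-5p was most like miR-130a-3p (0.75), miR-540-5p (0.67) and miR-98-5p (0.61), and its r with miR-322-5p was 0.50, which placed miR-322-5p at rank 11 for miR-503-5p and miR-503-5p at rank 102 for miR-322-5p. miR-195a-5p and miR-497a-5p were each other's closest (0.80), and outside the family miR-195a-5p was most like miR-190a-5p (0.66). miR-16-5p was most like miR-335-5p (0.73), and miR-15a-5p most like miR-299a-5p (0.77).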
